A study of Triticum aestivum with 4 samples.

Results

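The tubulin genes of bread wheat (Triticum aestivum) were taken as every gene whose symbol or synonym, in the annotation of the array or in the RefSeq gene table, contains the letters tub. This gave 6 genes with 10 probe sets, of 771 genes and 1273 probe sets that are paired with a gene. A probe set is the group of short DNA probes on the array that together report 1 transcript. TUBA encodes an alpha-tubulin and has 2 probe sets. The other 5 genes encode beta-tubulins with 8 probe sets: LOC543261 (Tubb5) has 4, and LOC543257 (tubb1), LOC543258 (tubb2), LOC543473 (tubb3) and LOC543260 (Tubb4) have 1 each. All 10 probe sets entered the test, since no filter on low values was applied. A LOC number is the only name for 1073 further probe sets, and 60017 features have no listed gene, so wheat tubulins under those entries are not analysed here.

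The seed came from 2 field-grown wheat genotypes, Domain and RL4452, which are the parents of a mapping population. Each genotype has 2 arrays, from the biological replicates numbered 1 and 3, all of seed harvested 5 days after anthesis with no treatment that sets the groups apart. RNA was drawn from enough whole seeds to fill a tube of 2 mL, so seed tissues were pooled, and fewer cells of a type cannot be told apart from less RNA per cell. The field layout had 3 replications of rows 1.47 m long, but the labels do not say whether biological replicates 1 and 3 came from separate ones, so p-values measure the spread between these samples, which may be partly technical.

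Alpha-tubulin and beta-tubulin bind GTP and join into dimers, and the dimers assemble into microtubules. Plant microtubules form the mitotic spindle and the phragmoplast that builds the new wall after division, and those under the plasma membrane guide cellulose synthase along the growing wall. In young cereal grain, microtubules radiating from the nuclei of the undivided endosperm mark out where its first cell walls form. Plant tubulins are encoded by families of similar genes, and bread wheat carries 3 related copies of many genes.

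With all 4 arrays Tubb5 was the tubulin that stood furthest apart between the genotypes, although no tubulin probe set passed the test. Without Domain replicate 3 TUBA had the larger difference, at -0.46 against -0.36 for Tubb5. Averaged over the 4 Tubb5 probe sets, Domain arrays had a mean log2 value of 0.22 ± 0.11 and RL4452 arrays one of -0.22 ± 0.096 (SD, n = 2). The difference was -0.44, which is 26.0% less signal in RL4452. Probe sequences were not compared between the genotypes. The gene means of the other beta-tubulins differed by -0.091 to 0.21, and that of TUBA by -0.18. Most markers of the endosperm had the same sign as Tubb5. Of 17 probe sets of 10 genes (gliadins, low-molecular-weight glutenin, amylase and trypsin inhibitors, Wx-A1 and AGP-S) 15 had a difference below 0, with a median of -0.41, and 0 were called. The differences were not alike in size, with the lowest at -2.96 for an amylase and trypsin inhibitor. The 2 above 0 were Wx-A1, at 2.39, and 1 of the glutenin probe sets, at 0.20. Array medians of the 17 were 0.010 on Domain replicate 1, 0.67 on Domain replicate 3, -0.14 on RL4452 replicate 1 and -0.10 on RL4452 replicate 3. The part of these markers in the Tubb5 difference was not tested. The median difference was 0.029 over 28 probe sets of 1 gene, rbcL, for green pericarp, which ran from -0.54 to 0.44. It was 0.022 over 6 probe sets of embryo genes. Over 4 of the 2 anther genes raftin1a and raftin1b it was -0.11, with 1 of the 4 above 0. Whether a tissue was present cannot be read from ratios.

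The values are ratios to the middle of the 4 arrays for that probe set, so an array is compared with another array and the level of 1 gene cannot be set against that of another.

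Of the 10 tubulin probe sets, 0 were called at a limma adjusted p under 0.05, against 0.280% of all 61179 probe sets tested. The adjusted p ran from 0.818 to 1. At an unadjusted limma p under 0.05 there were 2, both of Tubb5. Over all probe sets 5.85% reached it, and 3.36% with a lower value in RL4452. In size of difference, Tubb5 led the tubulins with all 4 arrays but not without Domain replicate 3. There the TUBA probe set Ta.723.1.S1_at had the largest difference, at -0.70, while those of Tubb5 ran from -0.43 to -0.30. That TUBA probe set read 0.65 on Domain replicate 1, and its difference was -0.025 without that array. With all 4 arrays the difference was below 0 for 6 probe sets and above 0 for 4, with a median of -0.22. Over all probe sets the median was 0.010 and 48.0% lay below 0. The median depends on the 4 probe sets of Tubb5: with 1 value per gene it was 0.0087. In size, the median tubulin difference was 0.28 log2 units, against 0.17 over all probe sets, and 0.15 with 1 value per gene. The arrays of the genotypes did not overlap for 6 tubulin probe sets, 5 lower and 1 higher in RL4452, against 32.4% of all probe sets in either direction. The genotype means lay further apart than the replicates of either genotype for 4, all of Tubb5, against 21.2% of all probe sets.

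**Figure D1:**
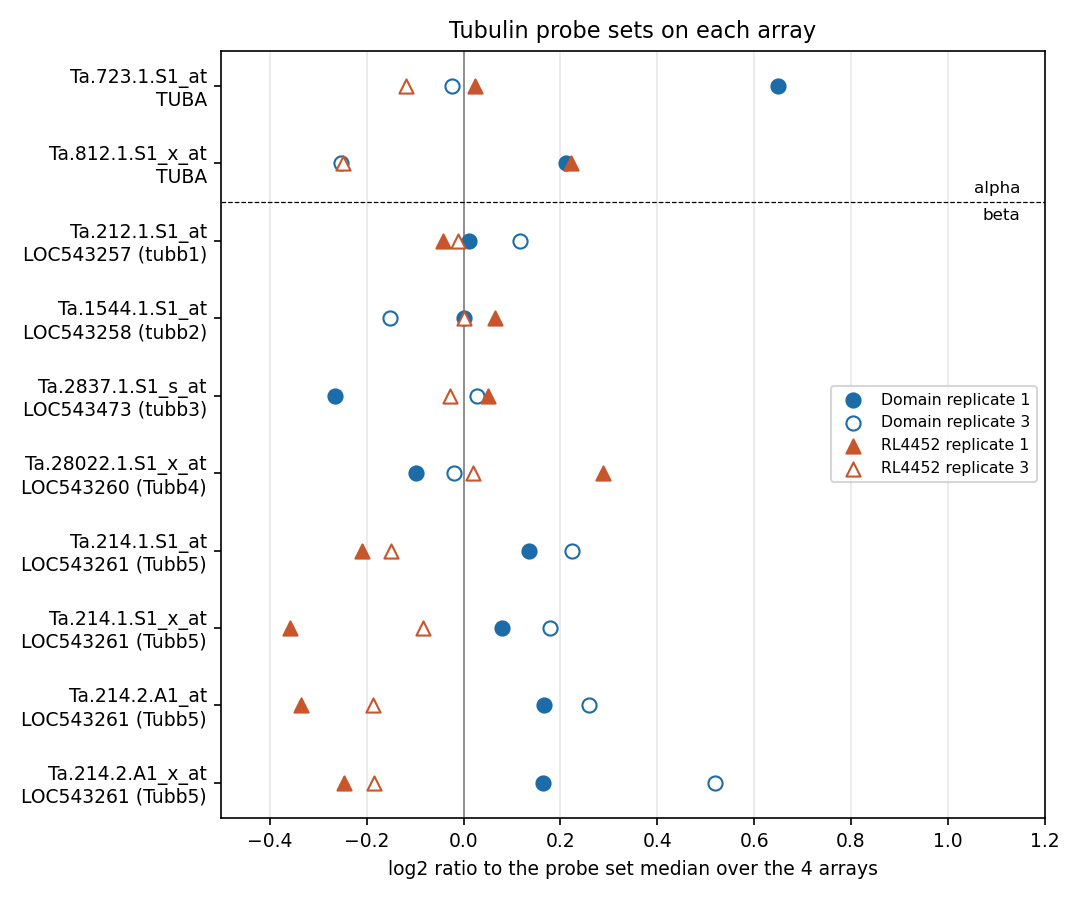
Log2 ratio of each tubulin probe set (rows; alpha-tubulin above the dashed line, beta-tubulin below) on each of the 4 arrays, with Domain as circles and RL4452 as triangles, replicate 1 filled and replicate 3 open. All 4 LOC543261 (Tubb5) probe sets have both Domain arrays above both RL4452 arrays, an order that 15.5% of all probe sets have. Both TUBA probe sets have the replicate 1 arrays to the right of the replicate 3 arrays of the same genotype.

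The 4 Tubb5 probe sets share a cluster number (Ta.214) and come from 2 sequences of that cluster, each measured by 1 probe set with the plain suffix at and by 1 with the suffix x_at. In the naming of the array's maker, x marks a probe set in which some probes also match other transcripts, and s one whose probes are shared by several. Of the 10 tubulin probe sets 5 carry such a suffix, 2 of them in Tubb5, and their signal can include other tubulin copies.

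For Ta.214.1.S1_at, the first of these, Domain replicate 1 read 0.13 and replicate 3 read 0.22 in log2 units, while RL4452 replicate 1 read -0.21 and replicate 3 read -0.15. Neither RL4452 array reached a Domain array, and the gap of 0.28 between the nearest arrays of the 2 genotypes was larger than the difference between replicates of either. The RL4452 minus Domain difference was -0.36 with SE 0.17 (limma adjusted p = 0.925).

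Its partner Ta.214.1.S1_x_at had 0.080 and 0.18 in Domain and -0.36 and -0.085 in RL4452. The order of the genotypes was the same, but the RL4452 replicates were 0.27 apart, more than the gap of 0.16 between the genotypes. The difference was -0.35 with SE 0.19 (limma adjusted p = 0.953), and -0.21 without RL4452 replicate 1.

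For the second sequence, Ta.214.2.A1_at had 0.17 and 0.26 in Domain and -0.34 and -0.19 in RL4452. Here the gap of 0.35 again exceeded both replicate differences. The difference was -0.47 with SE 0.18, which is 28.0% less in RL4452 (limma adjusted p = 0.838).

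The widest difference of the tubulins on all 4 arrays was that of Ta.214.2.A1_x_at, with 0.16 and 0.52 in Domain and -0.25 and -0.18 in RL4452. Domain replicate 3 was the high array, 0.36 above Domain replicate 1. The difference was -0.56 with SE 0.20, or 1.47-fold (limma adjusted p = 0.818), and it was -0.38 without Domain replicate 3, where the TUBA probe set Ta.723.1.S1_at had -0.70. The 95% interval of the fold, from 0.472 to 0.979 in RL4452 against Domain, spans a small decrease and one of more than 2-fold. Its size was larger than that of 90.2% of all probe sets.

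RL4452 was below Domain in each of the 16 comparisons of 1 RL4452 array with 1 Domain array over the 4 Tubb5 probe sets. In all 4, no RL4452 array reached a Domain array, where 15.5% of all probe sets have that order. These 4 share a gene and arrays and may share probes, so they are repeat readings of the same 4 samples and not separate evidence. Their profiles, each centred on its own mean, differed by a root mean square of 0.066 to 0.16 log2 units over the arrays. The gap between genotypes exceeded both replicate differences in 2 of the 4, against 9.57% of all probe sets and 0 of the other 6 tubulin probe sets.

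**Figure D2:**
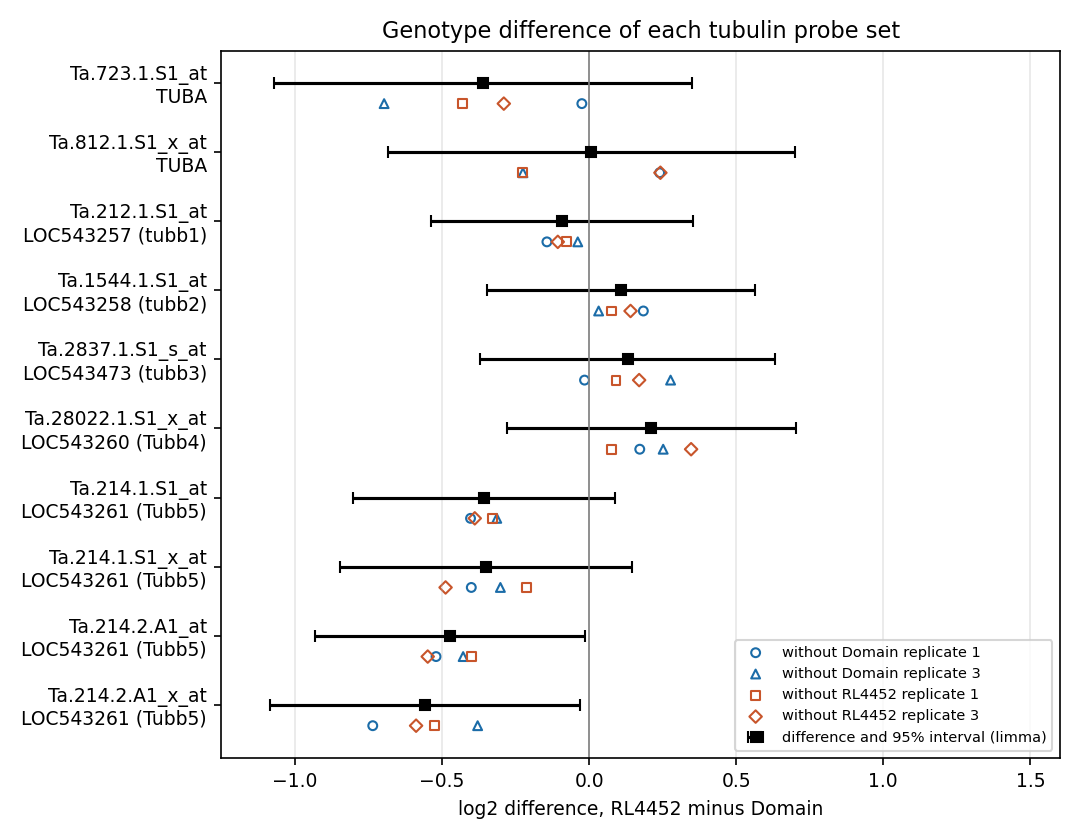
RL4452 minus Domain log2 difference of each tubulin probe set, with black squares for the limma estimate, bars for its 95% interval, and open symbols for the estimate without 1 named array. The 4 LOC543261 (Tubb5) estimates lie between -0.56 and -0.35 and stay below 0 without any 1 array, while the 2 TUBA estimates spread from -0.70 to 0.24 when an array is left out.

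The other beta-tubulin genes, each measured by 1 probe set, had differences on both sides of 0. LOC543260 (Tubb4) read -0.099 on Domain replicate 1 and -0.019 on Domain replicate 3, against 0.29 and 0.019 for the same replicates of RL4452. The RL4452 arrays lay above the Domain arrays, by 0.038 at the nearest, and RL4452 replicate 1 was the high array. The same order holds for 17.0% of all probe sets. The Tubb4 difference was 0.21 with SE 0.19 (limma adjusted p = 0.978), and 0.077 without RL4452 replicate 1.

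LOC543473 (tubb3) had -0.27 and 0.027 in Domain and 0.051 and -0.028 in RL4452. Domain replicate 1 was low, and the other 3 arrays lay close together and overlapped. The tubb3 difference was 0.13 with SE 0.19 (limma adjusted p = 0.996), and -0.015 without that low array. This is the 1 tubulin probe set with the suffix s_at.

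LOC543258 (tubb2) had 0 and -0.15 in Domain and 0.065 and 0 in RL4452, so an array of each genotype stood at the middle value. Its difference was 0.11 with SE 0.18 (limma adjusted p = 0.998), and it ran from 0.032 to 0.18 without 1 array, the ends being without Domain replicate 3 and 1. LOC543257 (tubb1) was the flattest, with 0.011 and 0.12 in Domain and -0.042 and -0.012 in RL4452. The genotypes did not overlap for tubb1, but the gap was only 0.023, and 5.70% of all probe sets had a smaller range over the 4 arrays. The tubb1 difference was -0.091 with SE 0.17, and its 95% interval ran from -0.54 to 0.35 (limma adjusted p = 1). Leaving out Domain replicate 1 gave -0.14, and leaving out Domain replicate 3 gave -0.039.

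The order of the gene differences, from Tubb5 at -0.44 through TUBA at -0.18, tubb1 at -0.091, tubb2 at 0.11 and tubb3 at 0.13 to Tubb4 at 0.21, separates no neighbours beyond their spread. The 95% intervals of the probe sets of TUBA, tubb1, tubb2, tubb3 and Tubb4 all contain 0, and each of them overlaps all 4 Tubb5 intervals. Those of 2 of the 4 Tubb5 probe sets, both of the second sequence, leave out 0 before adjustment for the number of probe sets tested.

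Tubb5 was also set against the other beta-tubulins within each array, a contrast that any scaling shared by all probe sets of an array cannot move. It was chosen after the values had been seen. Tubb5 minus the mean of the other 4 genes was 0.22 on Domain replicate 1 and 0.30 on replicate 3, but -0.38 on RL4452 replicate 1 and -0.15 on replicate 3. Domain arrays lay above 0 and RL4452 arrays below it. The means were 0.26 ± 0.055 and -0.26 ± 0.16 (SD, n = 2), and the difference of -0.53, or 1.44-fold, had a two-sided exact permutation p = 0.333, the smallest that 2 arrays against 2 allow. Without 1 array it ran from -0.64 to -0.41.

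**Figure D3:**
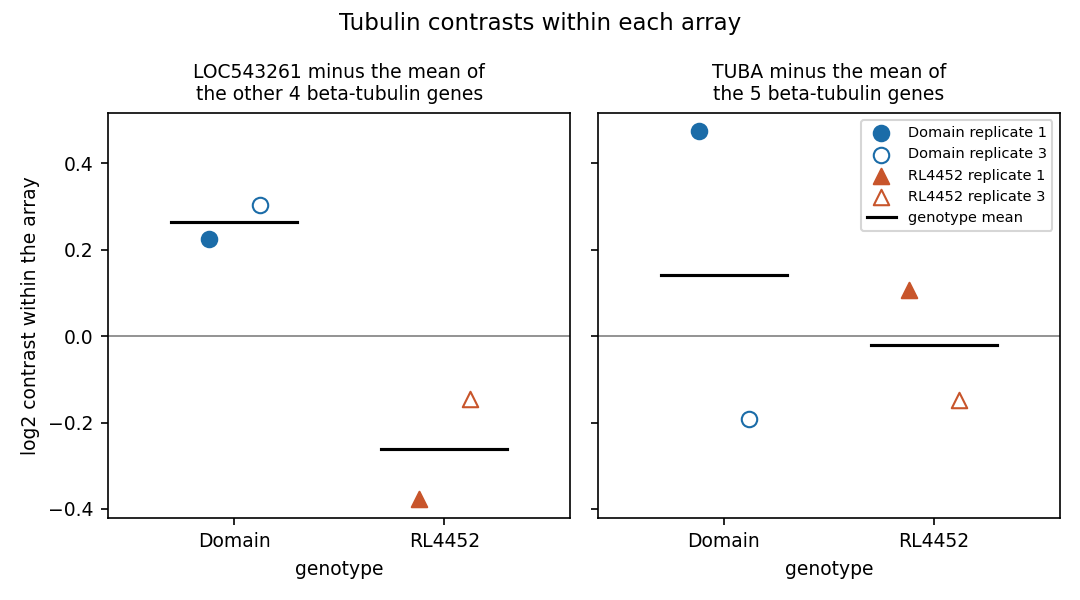
Log2 contrasts computed within each array, shown by genotype, with 1 point per array and a black line at the mean of the 2 arrays. Tubb5 against the other beta-tubulins (left) is 0.22 and 0.30 in Domain and -0.38 and -0.15 in RL4452, while TUBA against all beta-tubulins (right) is higher in the replicate 1 array than in the replicate 3 array of both genotypes.

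For TUBA, the alpha-tubulin, the 2 replicates of Domain lay further apart than the genotype means at both probe sets. Its probe set Ta.812.1.S1_x_at read 0.21 on Domain replicate 1 and -0.25 on replicate 3, with 0.22 on RL4452 replicate 1 and -0.25 on replicate 3. The genotype means were -0.021 ± 0.33 and -0.013 ± 0.33 (SD, n = 2), so the replicates were 0.46 apart in Domain and 0.47 apart in RL4452 while the genotypes differed by 0.0075 with SE 0.27 (limma adjusted p = 1). The sign of so small a value turned when each array was centred on its median, to -0.00045. The interval of the genotype difference, -0.68 to 0.70, still allows a difference of 1.62-fold.

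The other TUBA probe set, Ta.723.1.S1_at, had 0.65 and -0.023 in Domain and 0.023 and -0.12 in RL4452. Domain replicate 1 was the high array and the remaining 3 lay within 0.14 of one another, as far apart as the replicates of RL4452. The difference was -0.36 with SE 0.28 (limma adjusted p = 0.972), and -0.025 without Domain replicate 1. The 2 TUBA probe sets differed by a root mean square of 0.23 in their centred profiles, more than any pair of Tubb5 probe sets. They carry different cluster numbers (Ta.723 and Ta.812), while those of Tubb5 share 1, so the comparison is not of like pairs. The TUBA gene difference of -0.18 averages the -0.36 and 0.0075 of these 2.

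Both TUBA probe sets were thus lower in replicate 3 than in replicate 1, in both genotypes, and both replicate 3 arrays lay below both replicate 1 arrays, an order that 16.8% of all probe sets have. None of the 8 beta-tubulin probe sets had it. A further 4 probe sets carry the cluster number of the second TUBA probe set (Ta.812) in their names, 1 of them listed under LOC100049037 and the rest with no listed gene, so their identity as tubulin is not given. All 4 had the same order, with median differences between replicates 3 and 1 of -0.51 in Domain and -0.36 in RL4452. Their genotype differences ran from -0.23 to -0.14. Probe sets of 1 cluster can share probes and are not separate readings.

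Other readings moved with the replicate number too. The 18S ribosomal RNA control went from 0.75 in replicate 1 to -1.68 in replicate 3 of Domain, and from 2.04 to -3.12 in RL4452. The 36 probe sets of the bacterial transcripts that are added to a sample before labelling stood at a median of 0.50 in replicate 1 and -0.92 in replicate 3 of Domain, and of 1.33 and -0.86 in those of RL4452. The part of these in the TUBA values was not tested. Per the scanner setting files, both replicate 1 arrays were hybridised before both replicate 3 arrays, each on a day of its own, so replicate number and hybridization day cannot be told apart. TUBA minus the mean of the 5 beta-tubulin genes was 0.47 and -0.19 in Domain and 0.11 and -0.15 in RL4452, with a genotype difference of -0.16 (two-sided exact permutation p = 1).

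**Figure D4:**
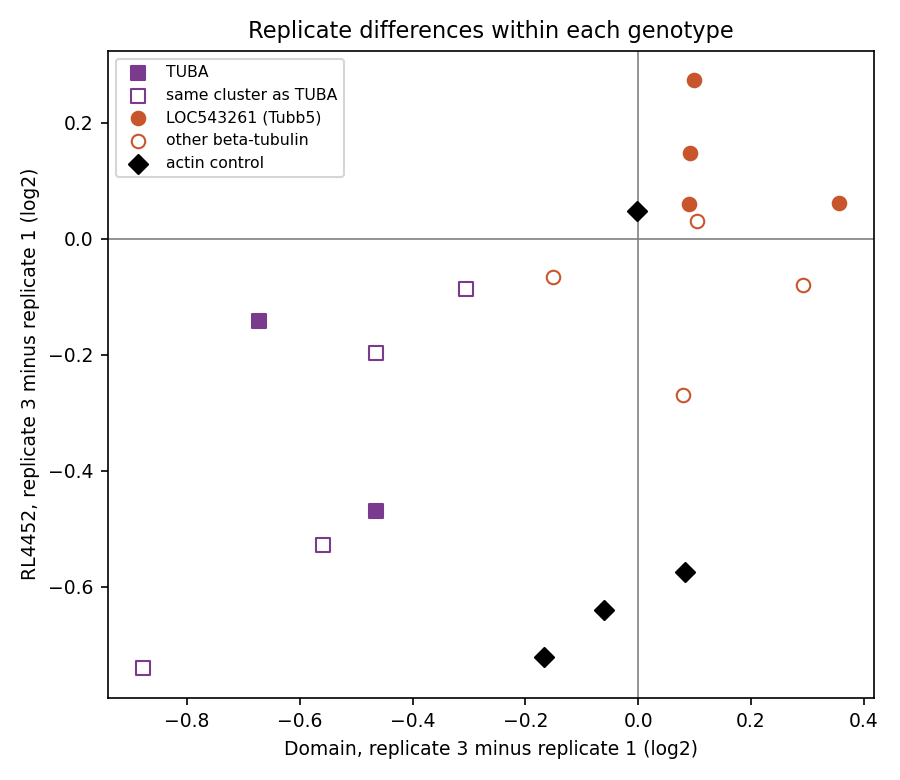
Replicate 3 minus replicate 1 in log2 units, in Domain (horizontal axis) and in RL4452 (vertical axis), with 1 point per probe set. The 2 TUBA probe sets and the 4 others of cluster Ta.812 lie in the lower left, below 0 in both genotypes. Of the 2 TUBA probe sets, 1 belongs to that cluster. The 4 LOC543261 (Tubb5) probe sets lie in the upper right, between 0.060 and 0.36.

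The list of other cytoskeleton, cell wall and division genes, found by name, held 20 probe sets of 6 genes, which were 2 of profilin and 18 of histones H2A and H2B. None was called (limma, lowest adjusted p = 0.907), and 0 reached an unadjusted p under 0.05. The difference was above 0 for 15 and below 0 for 5, with a median of 0.080. Profilin (LOC543315), which binds actin monomers, had differences of -0.31 and 0.051. For the first of its probe sets RL4452 replicate 3 stood at -0.96, against 0.17, -0.20 and 0.33 on Domain replicates 1 and 3 and RL4452 replicate 1. Histones, which package the DNA copied before division, ran from -0.22 to 0.55.

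Actin, the subunit of the other main filament of the plant cytoskeleton, has 4 control probe sets on the array, kept out of the test. Their RL4452 minus Domain differences were -0.025 to 0.15 with the controls kept in the fit (limma, lowest adjusted p = 0.997). At the 3' end the actin values were -0.042 and -0.044 in Domain and 0.041 and 0.089 in RL4452, a narrow range on all arrays. In the middle of the transcript they were 0.081 and -0.086 in Domain and 0.51 and -0.22 in RL4452, with RL4452 replicate 1 high. As a sign of RNA quality, the 3' minus 5' difference over 7 pairs of wheat control probe sets was compared between arrays. Its median was 0.40 in RL4452 replicate 3 and -0.22 in RL4452 replicate 1, against 0 and -0.0023 in Domain. These come from ratios to the middle of the 4 arrays, so 0 does not mark intact RNA. Between the 2 RL4452 arrays, the Tubb5 probe sets differed by 0.060 to 0.27.

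Of the 190 probe sets of other genes with a readable name, the 5 whose centred values over the 4 arrays were nearest to the mean profile of Tubb5 were taken as most alike. A probe set of rbcL (LOC100049018), the large subunit of the carbon-fixing enzyme Rubisco, was nearest, with a root mean square difference of 0.080. Its genotype difference of -0.54 was the lowest of the 28 rbcL probe sets, which reached up to 0.44, with 18 above 0. Next came COMT1 (LOC543449), a methyltransferase of lignin synthesis, at 0.085, and an alpha-type gliadin (LOC543385) at 0.098. The others were HGGT (LOC543094), a step in the synthesis of tocotrienols, at 0.10, and DMAS1 (LOC100037594), which makes the iron-binding deoxymugineic acid, at 0.11. Their own differences ran from -0.63 to -0.36, with limma adjusted p from 0.672 to 0.943. A profile over 4 arrays holds little information: 2.14% of all probe sets lay as near to that of Tubb5 as the last of these.

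Precision is limited by having 2 arrays per genotype: the 95% intervals of the 10 tubulin probe sets reach from 0.472-fold to 1.63-fold, so differences of that size are not shut out for single members.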

How the data were processed

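Affymetrix wheat arrays were hybridised with biotin-labelled cRNA made from poly(A) RNA, per the labels' protocols. The deposited values are linear ratios, 1 column per array. The submitters' processing notes name RMA, with the version and later steps not given in the sources used here. Over the 4 arrays, 99.5% of the 61290 features have a median ratio within 0.002 of 1. Per the file headers, the scanner setting files give the fluidics module and hybridization day.

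The ratios were log2-transformed, 111 control probe sets were left out, and RL4452 was compared with Domain by limma 3.58.1 in R 4.3.3 (genotype as the only term, 2.99 prior degrees of freedom, two-sided, Benjamini-Hochberg over 61179 probe sets, calls at 0.05). The script was tested on simulated data. Plots were drawn with matplotlib 3.10.9, and tables and exact tests made with scipy 1.17.1 and pandas 2.3.3 in Python 3.11.15. Names came from the array's annotation and the gene table of IWGSC CS RefSeq v2.1, which held 770 of the 771 genes. No tubulin sequence was used here.

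The members, lists and tests were chosen with earlier results of these data known. The rule for named genes took every tubulin probe set, the 5 probe sets nearest in profile to LOC543261, and the cytoskeleton, wall and division list. Tissue markers were looked up by symbol or synonym. That list had been written for gene descriptions, while the tables hold symbols and synonyms, so it found profilin and histones alone. Alternatives were quantile normalization, median-centring, a replicate block, a robust prior, controls kept, 1 value per gene, no shared probes, each array left out, and the shared fluidics module.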

Additional observations from a re-analysis of the deposited data

How the results depend on the processing

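Of 70 single tubulin differences under settings that can move the estimate 65 kept their sign. Tubb5 is among these, but leaving out an array could not turn it, since each RL4452 array already lay below each Domain array. In all, 0 tubulin probe sets were called in any fit, also without any 1 array (0 to 0). Over all probe sets 171 were called, 0 to 128 without 1 array. With a replicate block 0 were called (4555 at an unadjusted limma p under 0.05), without Domain replicate 1 or 3 limma also called 0 (3292 and 3418), and without RL4452 replicate 1 it called 101. With the block the lowest tubulin adjusted p was 0.653. No label says that a number pairs arrays, and replicate differences of the genotypes correlated at 0.143 across probe sets. Signs turned for Ta.812.1.S1_x_at with centred arrays (-0.00045) and without Domain replicate 3 (-0.22) or RL4452 replicate 1 (-0.23, its range being -0.23 to 0.24), for Ta.2837.1.S1_s_at without Domain replicate 1 (-0.015), and for Ta.723.1.S1_at within the 1 fluidics module that held both genotypes (0.046). The range for Ta.2837.1.S1_s_at was -0.015 to 0.28. Within that module (Domain replicate 3 and RL4452 replicate 1) medians were -0.067 for all tubulins, 0.26 for alpha, -0.30 for beta and -0.57 for Tubb5. With 1 value per gene they were 0.0087 for all and 0.11 for beta, since Tubb5 then counts once. Without probe sets with shared probes they were -0.36 for all and 0.0087 for the other beta-tubulins. Without 1 array medians ran from -0.26 to -0.084 for all, -0.46 to 0.11 for alpha, -0.27 to -0.14 for beta, -0.52 to -0.35 for Tubb5, 0.077 to 0.16 for the other beta-tubulins and 0.026 to 0.14 for the cytoskeleton list. The cause of the other shifts was not tested. Signal over background could not be computed from ratios, so how dim a tubulin probe set was is unknown.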

Other observations

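A further 3 probe sets carry the cluster number of the Tubb4 probe set (Ta.28022) in their names and have no listed gene. Their RL4452 minus Domain differences were -0.23, -0.13 and -0.085, where Tubb4 itself had 0.21, and in all 3 the arrays of the genotypes overlapped. Whether they report a beta-tubulin is not given in the annotation used here.

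Sucrose synthase, which supplies UDP-glucose for starch and cellulose, is measured by 3 control probe sets, for the 3' end, the 5' end and the middle of its transcript. They differed by -1.13, -1.08 and -1.68 between RL4452 and Domain, with the controls kept in the limma fit (lowest adjusted p = 0.701). Domain replicates 1 and 3 read 0.46 and 0.24 at the 3' end, 0.34 and 0.083 at the 5' end, and 0.34 and 0.12 in the middle. RL4452 replicate 3 was the low array for each, at -1.27, -1.65 and -2.77, against -0.30, -0.088 and -0.13 in RL4452 replicate 1. Both RL4452 arrays thus lay below both Domain arrays at each, an order that 15.5% of all probe sets tested have. The RL4452 replicates lay further apart than the Tubb5 replicates at any probe set.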
